A study of Mus musculus with 24 samples.

Results

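The insulin-like growth factor (IGF) genes described here are the 2 ligands Igf1 and Igf2, the receptors Igf1r and Igf2r, and the binding proteins Igfbp2 to Igfbp7. The rule takes them by name, although it was set with earlier results of these data known, and all 10 were found among the 56748 genes of the count table. The RNA came from the dental mesenchyme of first mandibular molar tooth germs of ICR mouse embryos. Cap stage germs were taken at E13 and bell stage germs at E15. The 24 libraries formed 8 groups of 3. Cap-W and Bell-W were undivided. Cap-L, Cap-B, Bell-L and Bell-B were the lingual (L) and buccal (B) parts, separated with a fine needle. The last 2 groups, Cap-L+2D and Cap-B+2D, are cap stage parts of either side kept in culture in vitro for 2 days. They differ from Cap-L and Cap-B in culture, in 2 days of time and in being kept without the other part. These cannot be told apart, and a change with culture below means all of them together. No group carried a transgene, a deletion or a drug treatment. The methods mention triplicates and also fewer biological replicates, so the p-values below measure the spread between libraries, which may be technical. The labels call the W samples whole tooth germs, whereas the protocol isolates the mesenchymal cells of each germ with dispase II.

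IGF1 and IGF2 are secreted growth factors that signal mainly through the tyrosine kinase receptor encoded by Igf1r. The product of Igf2r takes up IGF2 and delivers it to lysosomes, and also carries lysosomal enzymes. The binding proteins hold the ligands outside the cell, where they lengthen their life, withhold them from the receptor or release them when proteases cut the binding protein. In developing teeth and bone, IGF signaling is known for its part in growth and in the differentiation of mesenchymal cells into matrix-forming cells.

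The depth was 20581720 to 39266497 counted pairs a library (median 27677163), and the IGF genes took 0.210% to 0.605% of them. Levels are given in CPM, counts per 1000000 after TMM scaling over the 24 libraries, and 3 counts amounted to 0.0764 to 0.146 CPM. The 6 dental mesenchyme markers summed to 1693 to 3333 CPM, with none below 1 CPM in any group. Markers of other cells were present too. The epithelial list (6 genes) ranged from 86.9 to 88.9 CPM in Cap-B+2D to 504, 435 and 1789 CPM in the 3 Bell-W libraries. The undivided libraries stood apart from the divided ones. The gene Rn18s-rs5 took 5.39% of the counts in Cap-W replicate 1, and 1.30% and 1.43% in Bell-W replicates 1 and 2. In all other libraries it took at most 0.304%, and its part in the results was not tested. Over the 9 IGF genes other than Igfbp6, the median coefficient of variation within a group was 11.4% in Cap-W and Bell-W and 3.13% in the parts. A mixture of both parts would lie between them, but Cap-W lay below both Cap-L and Cap-B for Igf1, Igfbp4 and Igfbp5, among others, so differences between undivided and divided groups were not tested, and tissue and library batch cannot be told apart there. In bulk RNA, fewer cells of a type and less RNA per cell cannot be told apart either.

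The promoters of 4 genes whose levels moved most are shown, because the results below turn on them: Igf1 and Igfbp6, which differed between the sides, and Igfbp3 and Igfbp7, which were higher at the bell stage and after culture on both sides. Each is 300 bases from RefSeq (250 before and 50 after the start), placed in GRCm39 by an exact match: chr10:87696723-87697022 (plus strand), chr15:102052371-102052670 (plus), chr11:7163874-7164173 (minus) and chr5:77555843-77556142 (minus). Capitals mark matches, on either strand, to TATAAA (the TATA box), CCAAT (the CCAAT box), GGGCGG (the GC box bound by Sp factors) or TGTGGT (the core letters bound by Runx factors, which are central to bone and tooth mesenchyme). No 2 matches overlapped.
Igf1: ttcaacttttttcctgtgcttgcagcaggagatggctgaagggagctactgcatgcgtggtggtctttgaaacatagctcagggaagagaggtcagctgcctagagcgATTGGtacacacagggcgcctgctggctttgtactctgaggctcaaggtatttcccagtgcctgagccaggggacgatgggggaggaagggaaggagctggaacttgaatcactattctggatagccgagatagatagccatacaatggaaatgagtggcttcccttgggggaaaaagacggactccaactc
Igfbp6: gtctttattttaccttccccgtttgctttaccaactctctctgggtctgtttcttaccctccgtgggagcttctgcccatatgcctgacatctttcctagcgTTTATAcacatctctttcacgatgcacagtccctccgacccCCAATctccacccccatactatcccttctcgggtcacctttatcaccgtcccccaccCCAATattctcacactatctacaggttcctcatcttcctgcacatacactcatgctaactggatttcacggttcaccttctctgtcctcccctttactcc
Igfbp3: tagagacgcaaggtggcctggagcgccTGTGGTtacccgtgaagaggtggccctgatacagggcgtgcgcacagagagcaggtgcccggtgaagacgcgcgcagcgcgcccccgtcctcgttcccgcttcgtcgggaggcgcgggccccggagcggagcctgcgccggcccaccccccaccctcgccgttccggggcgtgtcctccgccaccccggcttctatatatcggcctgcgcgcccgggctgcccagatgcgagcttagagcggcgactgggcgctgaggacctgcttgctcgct
Igfbp7: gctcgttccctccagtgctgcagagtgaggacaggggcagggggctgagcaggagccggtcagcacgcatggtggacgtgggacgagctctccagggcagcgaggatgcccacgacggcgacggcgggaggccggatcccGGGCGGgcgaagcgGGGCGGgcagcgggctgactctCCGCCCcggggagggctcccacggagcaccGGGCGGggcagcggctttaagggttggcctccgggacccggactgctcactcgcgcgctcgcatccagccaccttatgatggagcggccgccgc
The Igf1 window held 1 CCAAT on its minus strand (read as ATTGG), and the Igfbp6 window held 2 CCAAT and, on its minus strand, 1 TATAAA (read as TTTATA). The Igfbp7 window held 4 GGGCGG, 3 on its own strand and 1 on the other, with a GC content of 73.3%. The Igfbp3 window, at 71.7% GC, held 1 TGTGGT. Among 32851 promoter windows of the same length, 13.6% held TATAAA, 37.4% CCAAT, 35.7% GGGCGG and 16.8% TGTGGT, and the median GC content was 52.7%. Igf1 (52.3% GC) and Igfbp6 (49.7%) were near that median. A match describes these letters and is not a binding site.

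Per kilobase of exon, which allows levels to be compared between genes, Igfbp4 ranked first over the 24 libraries with a mean of 202 CPM per kb. Igfbp5 followed at 186, Igfbp3 at 125 and Igfbp2 at 121 CPM per kb. Igf2 came next at 69.0 CPM per kb, then Igf2r at 43.3, Igfbp7 at 36.4, Igf1 at 26.1 and Igf1r at 11.4. Igfbp6 was last at 3.13 CPM per kb. The place of Igf2 depends on the counting: 64.5% of its exon bases are shared with the annotated genes Gm49394 and Igf2os, where pairs were not counted. Over its unshared bases it reached 195 CPM per kb and ranked second. That alternative was chosen after the values were seen.

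The 6 binding proteins together summed to 508 CPM per kb in Cap-L and 465 in Cap-B, and to 1159 in Cap-L+2D and 885 in Cap-B+2D. Their mix differed between the cultured sides. Igfbp4 made up 30.7% of the sum in Cap-L+2D and 16.9% in Cap-B+2D, while Igfbp2 made up 13.7% and 23.0%. In Cap-L and Cap-B, the Igfbp4 shares were 35.4% and 32.2%. These shares are ratios of group means and were not tested.

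**Figure D1:**
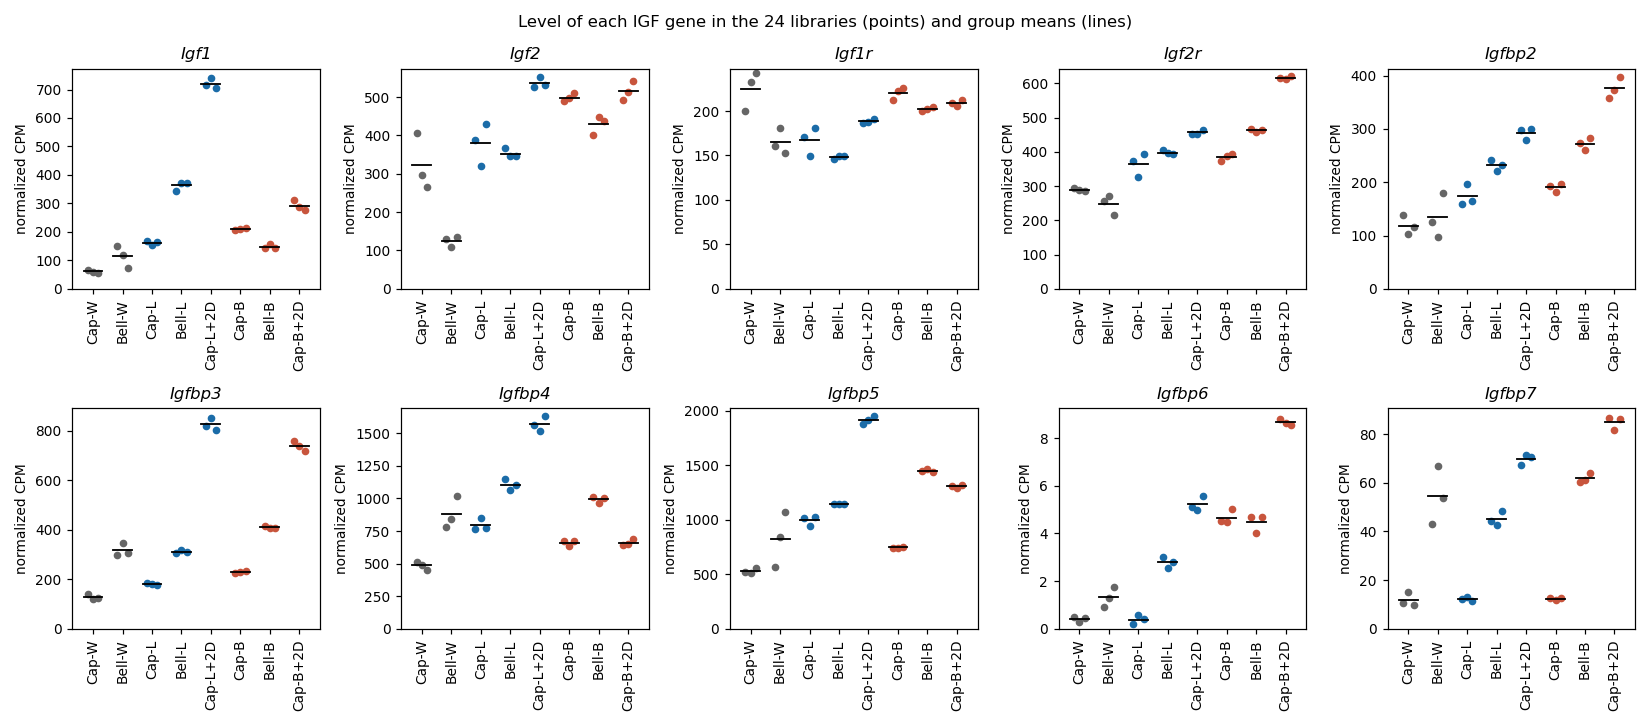
Normalized CPM (vertical axis, from 0) of each IGF gene in the 8 groups (horizontal axis), with 1 point per library and a line at the mean of each group of 3. Blue is lingual, red buccal and gray undivided. Igf1, Igfbp3, Igfbp4 and Igfbp5 were highest in Cap-L+2D, and Igf2r, Igfbp2, Igfbp6 and Igfbp7 in Cap-B+2D.

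Each comparison was fitted over all genes with edgeR, and a gene was called when its adjusted p was under 0.05 and its log2 fold change exceeded 0.5 in size. All 10 IGF genes passed the filter on low counts in every comparison. In Cap-B versus Cap-L, 1 of 10 was higher and 0 lower, where 17.5% of all tested genes were called. In Bell-B versus Bell-L, 1 was higher and 1 lower (12.9% of all genes), and in Cap-B+2D versus Cap-L+2D, 1 was higher and 3 lower (25.1%). The median log2 fold change of the 10 was 0.27, 0.31 and 0.04 in these comparisons, and that of all genes lay between -0.01 and 0.00. Whatever the fold, 8, 10 and 9 of the 10 had an adjusted p under 0.05. The share of all genes passing without a limit on the fold was not computed. These counts therefore do not set the IGF genes apart from other genes.

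In the comparisons of stage and of culture, 4 to 7 of the 10 IGF genes were called, and most of the called ones were higher. Of all genes called with stage, most were higher too. They were 2155 higher and 882 lower in the undivided mesenchyme, 3051 and 1239 in the lingual part, and 2635 and 1479 in the buccal part. Against the cap stage parts, the cultured parts had 4196 higher and 3397 lower (lingual) and 3947 and 3651 (buccal). Against the bell stage parts they had 3095 and 3591, and 3411 and 3577. Bell-W versus Cap-W had 5 higher and 1 lower (14.5% of all genes called), Bell-L versus Cap-L 4 higher and 0 lower (20.0%), and Bell-B versus Cap-B 5 higher and 1 lower (18.7%). The median log2 fold changes of the 10 were 0.74, 0.46 and 0.39, against medians of -0.03, 0.00 and 0.00 for all genes. After culture, 7 of 10 were higher and 0 lower in Cap-L+2D versus Cap-L (35.4% of all genes) and 6 higher and 0 lower in Cap-B+2D versus Cap-B (34.5%). Their medians were 0.95 and 0.71, against -0.03 and -0.02. Against the bell stage parts, Cap-L+2D had 6 higher and 0 lower than Bell-L (31.2%), and Cap-B+2D had 3 higher and 1 lower than Bell-B (31.8%). The comparisons of 1 side share their libraries, so their counts are not independent of each other.

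The effect of side itself was tested for a change with stage and with culture, as an interaction over 12 libraries and with no limit on the fold. With stage, 2 of 10 had a higher and 2 a lower buccal to lingual ratio at the bell stage (32.5% of all genes passed). With culture, 2 had a higher and 7 a lower ratio (35.5%). With all 24 libraries in 1 fit, 5 passed for culture, where Igf2, Igf1r, Igfbp5 and Igfbp7 were lost. Igfbp7 was also lost for stage (edgeR adjusted p = 0.104). Over all genes, 4048 passed for culture in that fit, against 7842 in the fit over 12 libraries. For stage 2581 passed, against 7137.

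**Figure D2:**
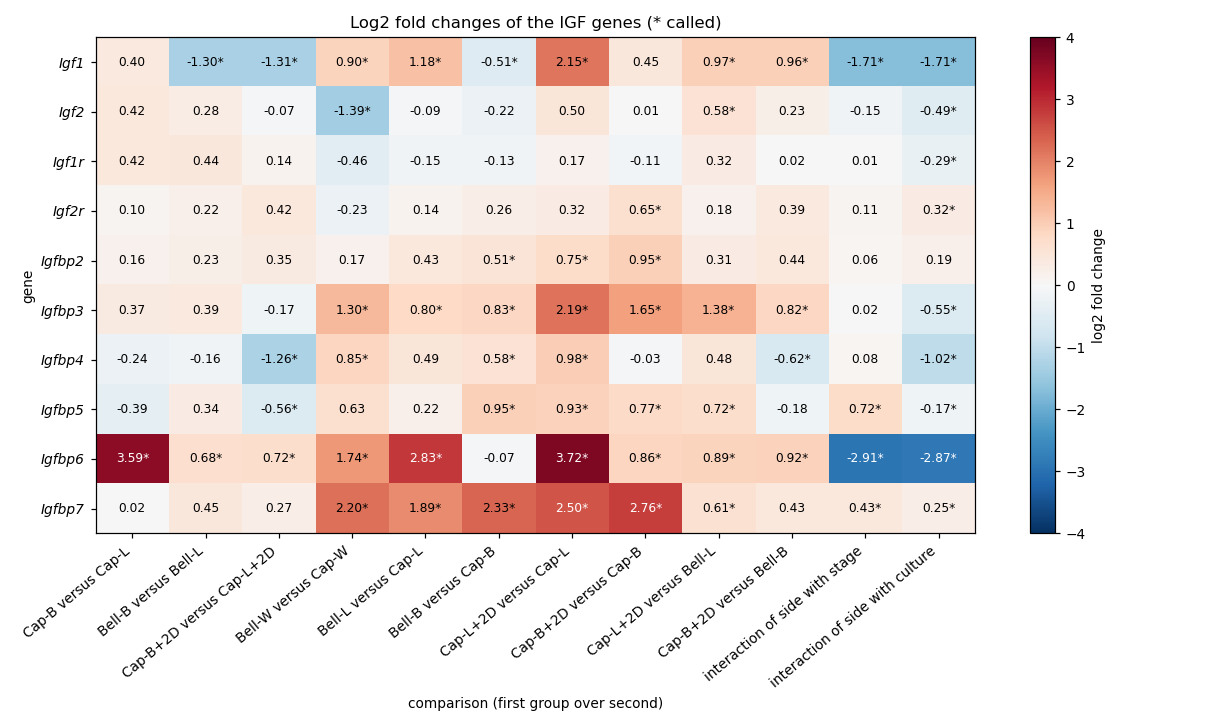
Log2 fold changes of the 10 IGF genes (vertical axis) in the 12 comparisons (horizontal axis), colored from blue (lower in the first group) to red (higher), with * for called genes. Igfbp6 and Igf1 were called most often, in 11 and 10 of the 12, and Igf1r least, in 1.

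Markers of other cells moved with side, stage and culture as well. The skeletal muscle list (6 of 6 genes found) summed to 12.7 to 14.1 CPM in Cap-L and 204 to 219 CPM in Cap-B, to 97.6 to 106 CPM in Bell-L and 894 to 914 CPM in Bell-B, and to 269 to 288 CPM and 3628 to 3738 CPM in the cultured lingual and buccal parts. In Cap-L, 2 of its 6 genes had a mean under 1 CPM. The bone list (6 of 6) summed higher on the lingual side, to 971 to 982 CPM in Cap-L, 445 to 462 CPM in Cap-B, 2351 to 2374 CPM in Cap-L+2D and 577 to 588 CPM in Cap-B+2D, and to 727 to 749 CPM in Bell-L and 556 to 560.4 CPM in Bell-B. All 5 bone genes tested in the cap stage parts and all 6 in the cultured parts were called lower on the buccal side. In the bell stage parts, 1 of the 5 tested was called higher on the buccal side and 1 lower (median log2 fold change -0.15). The Schwann cell and glia list (5 of 5) had the higher sum on the buccal side throughout. It summed to 25.01 to 26.1 CPM in Cap-L and 58.8 to 62.7 CPM in Cap-B, to 33.3 to 35.9 CPM in Bell-L and 70.2 to 72.1 CPM in Bell-B, and to 15.4 to 16.3 CPM and 98.1 to 100.1 CPM in the cultured lingual and buccal parts. In Cap-L 2 of its 5 genes had a mean under 1 CPM, and in each cultured part 3 did. The 3 genes tested between the cultured sides were called higher on the buccal side. Against Cap-B, however, 1 of the 5 was called higher in Cap-B+2D and 4 lower. The erythroid list (5 of 5) was low in the cultured parts, with 25.3 to 30.4 CPM in Cap-L+2D against 2143 to 2656 CPM in Cap-L. The macrophage list (5 of 5) was higher at the bell stage and after culture, where most IGF genes that were called rose too. On the lingual side it went from 49.99 to 52.8 CPM in Cap-L to 154 to 159.6 CPM in Bell-L and 192 to 201 CPM in Cap-L+2D. On the buccal side it went from 52.9 to 59.04 CPM to a mean of 102 CPM and 135 to 142 CPM, and in the undivided mesenchyme from 25.1 to 29.6 CPM to 100.2 to 122 CPM. The part of these cells in the IGF results was not tested.

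Igf1 (ENSMUSG00000020053, chr10:87694127-87772904 on the plus strand of GRCm39) encodes the ligand with the strongest difference between the sides. It stood at 168, 153 and 164 CPM in the Cap-L libraries and at 205, 209 and 214 CPM in Cap-B. At the bell stage it was 345, 373 and 372 CPM on the lingual side and 143, 156 and 142 CPM on the buccal side. Every Cap-B library was thus above every Cap-L library, and every Bell-B library below every Bell-L library. In Cap-B versus Cap-L the difference was small and under the limit on the fold (log2 fold change 0.40 ± 0.05 (SE), edgeR adjusted p = 1.88e-06). At the bell stage Igf1 was 2.47-fold higher on the lingual side (log2 fold change -1.30 ± 0.04 (SE), edgeR adjusted p = 1.95e-29). The change of the side effect between the stages was itself significant (difference of log2 fold changes -1.71 ± 0.06 (SE), edgeR adjusted p = 4.92e-19). The macrophage markers differed between the sides in the same direction. They had 154 to 159.6 CPM in Bell-L and a mean of 102 CPM in Bell-B (3 of 5 called lower on the buccal side). After culture they had 192 to 201 CPM in Cap-L+2D and 135 to 142 CPM in Cap-B+2D (3 of 5 lower). At the cap stage they were at 49.99 to 52.8 CPM in Cap-L and 52.9 to 59.04 CPM in Cap-B. From Cap-B to Bell-B, however, 4 of the 5 were called higher and 0 lower, whereas Igf1 fell. Their part was not tested.

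From the cap to the bell stage, Igf1 rose 2.24-fold in the lingual part (log2 fold change 1.18 ± 0.05 (SE), edgeR adjusted p = 1.64e-16) and fell in the buccal part (log2 fold change -0.51 ± 0.04 (SE), edgeR adjusted p = 3.86e-13). The fall sat at the limit on the fold: without Bell-B replicate 1 or 3 it was -0.49 and no longer called. After culture, Igf1 measured 717, 739 and 706 CPM in Cap-L+2D and 312, 289 and 277 CPM in Cap-B+2D. The cultured lingual libraries were above all others of the series. Against Cap-L the rise was 4.45-fold (log2 fold change 2.15 ± 0.05 (SE), edgeR adjusted p = 4.48e-22), and against Cap-B the difference of Cap-B+2D was 0.45 ± 0.04 on the log2 scale, under the limit (edgeR adjusted p = 2.24e-12). Cap-B+2D stood below Cap-L+2D by 2.46-fold (log2 fold change -1.31 ± 0.04 (SE), edgeR adjusted p = 1.55e-19) against 2.47-fold in the bell stage parts.

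In the undivided mesenchyme Igf1 was 65.9, 60.03 and 56.7 CPM in Cap-W and 149.6, 120.4 and 72.1 CPM in Bell-W. The groups did not overlap, and the edgeR adjusted p for the rise was 0.0474 (log2 fold change 0.90 ± 0.25 (SE)). The call was lost in 5 of the 6 fits that left 1 library out, with adjusted p between 0.0746 and 0.144, and was kept without Bell-W replicate 3. That library had the lowest Bell-W value and 1789 CPM of epithelial markers, whose part was not tested. All 3 Cap-W libraries lay below every Cap-L and Cap-B library. In order of mean level, Cap-L+2D led, followed by Bell-L, Cap-B+2D, Cap-B, Cap-L, Bell-B, Bell-W and Cap-W, and Cap-L, Bell-B and Bell-W overlapped with their neighbors in that order.

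**Figure D3:**
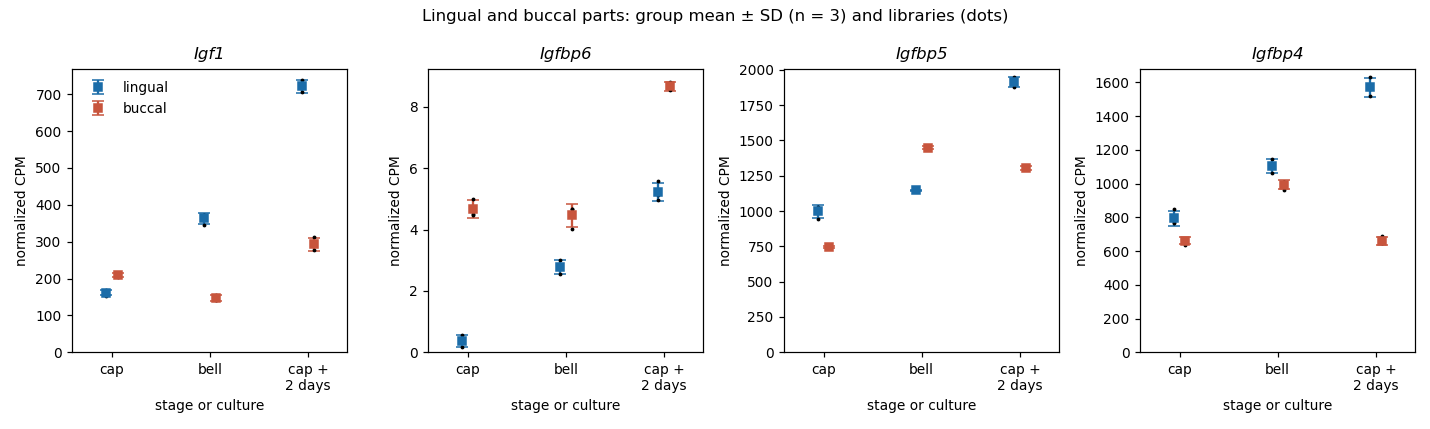
Igf1, Igfbp6, Igfbp5 and Igfbp4 in the lingual (blue) and buccal (red) parts, at cap and bell stages and after culture, as normalized CPM on a vertical axis from 0. Squares and bars are mean ± SD of 3 libraries and dots are the libraries. Igf1 and Igfbp5 changed their order of sides between cap and bell.

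Igf2 (ENSMUSG00000048583, chr7:142204503-142220553 on the minus strand of GRCm39) encodes the fetal ligand and is an imprinted gene, expressed from the paternal copy in most tissues. Its level differed little between the parts, at 388, 319 and 429.6 CPM in Cap-L and 489, 498 and 509 CPM in Cap-B, a difference of 0.42 ± 0.08 on the log2 scale that stayed under the limit (edgeR adjusted p = 1.98e-04) and came to 0.53 without Cap-L replicate 3. The bell stage levels were 345 to 367 CPM in Bell-L and 401 to 448 CPM in Bell-B, and neither part was called against its cap stage group. The cultured lingual part, at 527, 552 and 532 CPM, was higher than Bell-L (log2 fold change 0.58 ± 0.07 (SE), edgeR adjusted p = 4.19e-08). Against Cap-L it measured 0.50 ± 0.07 (SE), at the edge of the limit, and it was called in 8 of the alternative settings. The only called fall of Igf2 was in the undivided mesenchyme. Cap-W held 406, 296 and 265 CPM and Bell-W 129, 109 and 134 CPM, with no overlap, and the level fell 2.60-fold (log2 fold change -1.39 ± 0.19 (SE), edgeR adjusted p = 0.00272).

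Other RNAs tied to Igf2 are its antisense neighbor Igf2os, the imprinted long noncoding RNA H19 of the same locus, and the Igf2bp genes, whose proteins bind Igf2 mRNA among others. Since the counting ignored strand, reads of Igf2 and Igf2os in shared exons cannot be told apart, and they were left out. H19 rose with culture on both sides, from 4187 to 4396 CPM to 9042 to 9285 CPM on the lingual side (log2 fold change 1.08) and from 5722 to 5938 CPM to 10836 to 11329.5 CPM on the buccal side (0.87). In the undivided mesenchyme Igf2os fell with Igf2 (log2 fold change -0.99), as did Igf2bp1 (-1.88), Igf2bp2 (-0.84) and Igf2bp3 (-0.98). In the parts, Igf2bp1 also fell from cap to bell, by 1.31 in the lingual and 0.92 in the buccal part on the log2 scale. Igf2os was lower in Bell-L than in Cap-L (-0.62) and higher in Cap-B+2D than in Cap-B (1.32). It was also higher in Bell-B than in Bell-L (0.52) and in Cap-B+2D than in Cap-L+2D (0.76). Igf2 itself was not called in any of these comparisons of Igf2os in the parts. The edgeR adjusted p of these Igf2 locus and Igf2bp values was at most 0.00946.

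The receptors were seldom called, and Igf1r moved less than Igf2r. Igf1r (ENSMUSG00000005533, chr7:67602575-67883416 on the plus strand of GRCm39) kept within 147 to 243 CPM over the 24 libraries, and the highest group mean was 1.52 times the lowest. It was called in none of the 10 comparisons of groups. Every Cap-B library (212 to 225 CPM) lay above every Cap-L library (149 to 181 CPM), and the bell stage parts did not overlap either (199.5 to 205 CPM in Bell-B, 147 to 149.7 CPM in Bell-L). Those differences of 0.42 and 0.44 on the log2 scale were under the limit, with edgeR adjusted p of 1.48e-05 and 1.51e-15.

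Igf2r (ENSMUSG00000023830, chr17:12901293-12988551 on the minus strand of GRCm39) was called in a single comparison of groups. Its highest group mean, in Cap-B+2D, was 2.48 times its lowest, in Bell-W. Its levels were 372, 388 and 393 CPM in Cap-B and 617, 612 and 623 CPM in Cap-B+2D, without overlap, a 1.61-fold rise (log2 fold change 0.65 ± 0.03 (SE), edgeR adjusted p = 8.48e-19). The cultured buccal libraries were above those of every other group. On the lingual side Cap-L+2D (454 to 465 CPM) lay above Cap-L (327 to 392 CPM) by 0.32 ± 0.05 on the log2 scale. The 2 responses to culture differed (difference 0.32 ± 0.07 (SE), edgeR adjusted p = 3.53e-04).

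Igfbp6 (ENSMUSG00000023046, chr15:102052797-102057946 on the plus strand of GRCm39), a binding protein with a preference for IGF2, was the least abundant of the 10 and the one with the widest range. At the cap stage it was far higher on the buccal side. The Cap-L libraries had 5, 20 and 11 counts (0.18, 0.561 and 0.388 CPM), and the Cap-B libraries 100, 107 and 127 counts (4.51, 4.47 and 5.01 CPM). No library of one side came near the other, and Cap-B was 12.4-fold higher (log2 fold change 3.59 ± 0.22 (SE), edgeR adjusted p = 1.90e-10). At the bell stage the gap was smaller, with 3.01, 2.55 and 2.78 CPM in Bell-L and 4.68, 4.02 and 4.68 CPM in Bell-B, a 1.60-fold difference (log2 fold change 0.68 ± 0.13 (SE), edgeR adjusted p = 2.65e-05). The side effect changed between the stages by -2.91 ± 0.26 on the log2 scale (SE, edgeR adjusted p = 4.19e-10). Its low counts leave it out of the cap stage test if at least 10 counts are asked of every library.

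In the lingual part Igfbp6 rose 7.39-fold from Cap-L to Bell-L (log2 fold change 2.83 ± 0.23 (SE), edgeR adjusted p = 1.71e-10), and in the buccal part the difference was -0.07 ± 0.11 (SE, edgeR adjusted p = 0.643). The cultured parts held 5.12, 4.98 and 5.57 CPM in Cap-L+2D and 8.81, 8.62 and 8.56 CPM in Cap-B+2D. Both rose against their cap stage parts, 13.9-fold on the lingual side (log2 fold change 3.72 ± 0.20 (SE), edgeR adjusted p = 2.83e-14) and 1.86-fold on the buccal side (log2 fold change 0.86 ± 0.10 (SE), edgeR adjusted p = 1.92e-09). The cultured buccal part remained 1.66-fold above the lingual (log2 fold change 0.72 ± 0.09 (SE), edgeR adjusted p = 2.79e-07). Buccal libraries were thus higher in all 3 settings, as were the sums of the skeletal muscle and the Schwann cell and glia lists, whose part was not tested. After culture, 3 of the 5 Schwann cell and glia genes had a mean under 1 CPM on either side.

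The undivided mesenchyme held little Igfbp6, with 0.478, 0.265 and 0.443 CPM in Cap-W and 0.925, 1.28 and 1.75 CPM in Bell-W. The groups did not overlap, and the rise was called (log2 fold change 1.74 ± 0.42 (SE), edgeR adjusted p = 0.0287), but the call was lost in 4 of the 6 fits that left out 1 library (adjusted p between 0.071 and 0.11) and under a replicate block (0.0555). The Cap-W mean was 0.395 ± 0.114 CPM (SD, n = 3), within the range of the Cap-L libraries.

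Igfbp4 (ENSMUSG00000017493, chr11:98932070-98945218 on the plus strand of GRCm39), whose product mostly restrains IGF action until the pregnancy-associated plasma proteins cut it, differed between the sides after culture. The Cap-L+2D libraries held 1563, 1518 and 1632 CPM and the Cap-B+2D libraries 645, 651 and 688 CPM, so the lingual level was 2.38-fold higher (log2 fold change -1.26 ± 0.04 (SE), edgeR adjusted p = 2.07e-19). Before culture the sides were closer, at 765, 847 and 769.7 CPM in Cap-L and 674, 636 and 672 CPM in Cap-B, a difference of -0.24 ± 0.05 under the limit. The lingual level was 1.98-fold higher in Cap-L+2D than in Cap-L (log2 fold change 0.98 ± 0.05 (SE), edgeR adjusted p = 1.75e-15). The buccal level was -0.03 from that of Cap-B (edgeR adjusted p = 0.389), and the 2 responses differed by -1.02 ± 0.06 on the log2 scale (SE, edgeR adjusted p = 5.17e-14).

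At the bell stage Igfbp4 was 1064 to 1146 CPM in Bell-L and 962 to 1009.8 CPM in Bell-B. It rose from Cap-B to Bell-B (log2 fold change 0.58 ± 0.03 (SE), edgeR adjusted p = 4.73e-16), and in the lingual part it measured 0.49 ± 0.05 on the log2 scale, just under the limit and called without Cap-L replicate 2 or without Bell-L replicate 2. Cap-B+2D was then lower than Bell-B (log2 fold change -0.62 ± 0.03 (SE), edgeR adjusted p = 3.62e-17). The undivided mesenchyme rose from 516, 490.1 and 451 CPM to 779.7, 845 and 1022 CPM (log2 fold change 0.85 ± 0.14 (SE), edgeR adjusted p = 0.0065).

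Igfbp5 (ENSMUSG00000026185, chr1:72897091-72914043 on the minus strand of GRCm39), a binding protein stored in the matrix of bone and other connective tissues, lies tail to tail with Igfbp2, 5457 bases away. The sides traded places between the stages. Cap-L held 1019, 946 and 1026 CPM and Cap-B 745, 740.0 and 754 CPM, whereas Bell-L held 1143, 1148 and 1148 CPM and Bell-B 1444, 1462 and 1441 CPM. Lingual was the higher side at the cap stage and buccal at the bell stage, with no overlap in either. Each difference, -0.39 ± 0.05 and 0.34 ± 0.03 on the log2 scale, was under the limit, but their change was significant (difference 0.72 ± 0.06 (SE), edgeR adjusted p = 8.93e-12). In the buccal part Igfbp5 rose 1.94-fold with stage (log2 fold change 0.95 ± 0.03 (SE), edgeR adjusted p = 2.57e-23).

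After culture the lingual side led again, with 1879, 1914 and 1949 CPM in Cap-L+2D against 1306, 1295 and 1320.4 CPM in Cap-B+2D (log2 fold change -0.56 ± 0.03 (SE), edgeR adjusted p = 3.22e-13). Both had risen from the cap stage, by 0.93 and 0.77 on the log2 scale (edgeR adjusted p = 1.13e-15 and 2.05e-21). Bell-W was scattered at 569, 843 and 1070.1 CPM, above the 509 to 559 CPM of Cap-W. Its difference of 0.63 ± 0.21 was not called by edgeR (adjusted p = 0.0917), but it was called by DESeq2 (adjusted p = 0.0251) and by edgeR without a filter on low counts (0.0420), with all 24 libraries in 1 fit (1.61e-04) and without Bell-W replicate 1 (0.0269). The highest of the 3 was the library with 1789 CPM of epithelial markers, and the part of epithelium was not tested.

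Igfbp3 (ENSMUSG00000020427, chr11:7156086-7163923 on the minus strand of GRCm39), the main carrier of IGFs in blood and also a product of connective tissue cells, lies 3539 bases from Igfbp1 in the opposite orientation. It rose in every comparison of stage and of culture. Cap-L held 184, 182 and 175 CPM, Bell-L 304, 318 and 312 CPM and Cap-L+2D 819, 853 and 803 CPM. On the buccal side the levels were 226, 229 and 233 CPM in Cap-B, 414, 407 and 407 CPM in Bell-B and 758, 739 and 718 CPM in Cap-B+2D. The 3 groups of each side were in this order without overlap. The rise with stage was 1.73-fold on the lingual side (log2 fold change 0.80 ± 0.04 (SE), edgeR adjusted p = 4.95e-14) and 1.78-fold on the buccal (log2 fold change 0.83 ± 0.03 (SE), edgeR adjusted p = 3.84e-21), and its change between sides was not significant (difference 0.02 ± 0.05 (SE), edgeR adjusted p = 0.849).

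With culture Igfbp3 rose 4.58-fold on the lingual side (log2 fold change 2.19 ± 0.04 (SE), edgeR adjusted p = 4.15e-23) and 3.22-fold on the buccal side (log2 fold change 1.65 ± 0.03 (SE), edgeR adjusted p = 4.98e-30). The cultured parts were also above the bell stage parts, by 1.38 and 0.82 on the log2 scale. In the undivided mesenchyme it went from 140.0, 118 and 126 CPM to 298, 347 and 305 CPM (log2 fold change 1.30 ± 0.12 (SE), edgeR adjusted p = 7.24e-04). None of the 3 side comparisons called it.

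Igfbp7 (ENSMUSG00000036256, chr5:77497087-77555888 on the minus strand of GRCm39) encodes a secreted relative of the binding proteins with low affinity for IGFs, found in vessels and matrix. It was alike at the cap stage, with 9.65 to 14.99 CPM in Cap-W, 11.4 to 13.04 CPM in Cap-L and 11.8 to 12.5 CPM in Cap-B, 3 groups that overlapped. At the bell stage it reached 44.1, 42.8 and 48.4 CPM in Bell-L, 60.4, 61.00 and 64.2 CPM in Bell-B and 43.2, 66.9 and 53.6 CPM in Bell-W. No bell stage library overlapped with the cap stage. The rise was 3.68-fold on the lingual side (log2 fold change 1.89 ± 0.06 (SE), edgeR adjusted p = 3.57e-18), 5.06-fold on the buccal (log2 fold change 2.33 ± 0.05 (SE), edgeR adjusted p = 4.89e-27) and 4.66-fold in the undivided mesenchyme (log2 fold change 2.20 ± 0.21 (SE), edgeR adjusted p = 8.80e-04).

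The cultured levels of Igfbp7 were 67.4, 71.5 and 70.5 CPM in Cap-L+2D and 86.7, 81.7 and 86.2 CPM in Cap-B+2D. These were 5.70-fold and 6.94-fold above the cap stage parts (log2 fold change 2.50 ± 0.06 (SE), edgeR adjusted p = 2.25e-21 on the lingual side and log2 fold change 2.76 ± 0.05 (SE), edgeR adjusted p = 3.02e-30 on the buccal side). The endothelial list (6 of 6) summed to 365 to 381 CPM in Cap-B, 479 to 487 CPM in Bell-B and 151 to 152 CPM in Cap-B+2D on the buccal side. In the lingual part it was 409.9 to 427 CPM in Cap-L, 512 to 522 CPM in Bell-L and 356 to 359 CPM in Cap-L+2D. In the undivided mesenchyme it went from 175 to 182 CPM in Cap-W to 331 to 419 CPM in Bell-W, with 6 of 6 genes called higher. In each part only 1 of the 6 was called higher with stage. With culture 2 of 6 were called lower on the lingual side and 6 of 6 on the buccal side. The sum of the endothelial list was thus higher with stage, as Igfbp7 was, and lower with culture, where Igfbp7 was higher. Its part was not tested. A share of 7.03% of the Igfbp7 exon bases is shared with Polr2b and was not counted.

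Igfbp2 (ENSMUSG00000039323, chr1:72863662-72891633 on the plus strand of GRCm39), a binding protein common in the embryo, was called with culture and in the buccal part with stage. Its lingual levels were 159, 196 and 165 CPM in Cap-L and 298, 279.7 and 299.8 CPM in Cap-L+2D (log2 fold change 0.75 ± 0.06 (SE), edgeR adjusted p = 1.87e-11). The buccal levels were 193, 181 and 198 CPM in Cap-B and 357, 372 and 398 CPM in Cap-B+2D (log2 fold change 0.95 ± 0.04 (SE), edgeR adjusted p = 3.53e-20). Neither pair of groups overlapped, and the change between sides missed the threshold (difference 0.19 ± 0.08 (SE), edgeR adjusted p = 0.0637). The rise from Cap-B to Bell-B (log2 fold change 0.51 ± 0.04 (SE), edgeR adjusted p = 1.30e-12) sat at the limit and dropped to 0.48 without Cap-B replicate 2 or Bell-B replicate 3. Bell-W (125, 97.7 and 179.7 CPM) and Cap-W (138, 103 and 115 CPM) overlapped.

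The wider pathway was read from a list of 31 other genes, of which 28 to 30 were tested in each comparison. In the side comparisons 5 were called higher and 3 lower in cap stage parts (28.6% of those tested, against 17.5% of all genes), 3 and 3 in bell stage parts (20.7% against 12.9%), and 6 and 3 after culture (31.0% against 25.1%). With stage, 5 were higher and 7 lower in the undivided mesenchyme (41.4% against 14.5%), 7 and 4 in the lingual part (37.9% against 20.0%), and 5 and 3 in the buccal part (26.7% against 18.7%). With culture, 9 were higher and 5 lower on the lingual side (48.3% against 35.4%), and 8 and 3 on the buccal side (36.7% against 34.5%). Against the bell stage parts, the cultured parts had 7 higher and 5 lower on the lingual side (41.4% against 31.2%), and 9 and 3 on the buccal side (40% against 31.8%). The interactions passed the test for 19 genes each, 7 higher and 12 lower with stage (65.5% against 32.5%) and 8 and 11 with culture (65.5% against 35.5%). The median log2 fold change of the tested pathway genes lay between -0.18 and 0.23 over the 12 comparisons.

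Of the 5 proteases that cut the binding proteins and their inhibitors, 5 were called between the sides in the cap stage parts, 3 in the bell stage parts and 3 after culture, in both directions. Pappa2, a metalloprotease that releases IGFs from Igfbp3 and Igfbp5, was lingual in all 3 settings. It stood at 317, 261 and 328 CPM in Cap-L and 43.9, 46.04 and 43.7 CPM in Cap-B, with log2 fold changes of -2.74, -1.93 and -1.37 for cap, bell and culture. The stanniocalcin Stc2, which inhibits these proteases, was higher on the buccal side in the same comparisons, by 0.78, 1.04 and 2.25. After culture it reached 28.03 to 28.97 CPM in Cap-B+2D and 5.58 to 6.19 CPM in Cap-L+2D. Its relative Stc1 was higher in Cap-B than in Cap-L (1.19) and in Cap-B+2D than in Cap-L+2D (0.63), and measured 0.11 in Bell-B versus Bell-L (edgeR adjusted p = 0.123). Pappa, the partner protease that cuts Igfbp4, was lower on the buccal side in Cap-B versus Cap-L (-0.64) and in Bell-B versus Bell-L (-1.09), but after culture it measured 0.29 in the other direction, under the limit (edgeR adjusted p = 0.0038). It fell with stage in the buccal part (-0.74) and with culture in the lingual part (-1.09).

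Htra1, a serine protease that can degrade binding proteins, rose with stage and culture beside Igfbp3 and Igfbp7. Its lingual levels were 10.04, 10.7 and 9.14 CPM in Cap-L, 64.5, 60.5 and 62.1 CPM in Bell-L and 129, 134 and 140.4 CPM in Cap-L+2D. The log2 fold changes were 2.66 and 3.74 on the lingual side, 1.16 and 1.85 on the buccal side, and 3.23 in the undivided mesenchyme. Between the sides Htra1 was higher in Cap-B than in Cap-L (1.74), opposite to Pappa2, and its differences of 0.23 at the bell stage and -0.16 after culture were under the limit. Pappa2 also rose with stage, by 3.13 in the undivided mesenchyme, 1.30 on the lingual and 2.11 on the buccal side. Among receptor adaptors, Irs4 was higher in Cap-B than in Cap-L (1.79), at levels of 2.84 to 3.23 CPM and 0.87 to 0.936 CPM. The edgeR adjusted p of the called protease, inhibitor and Irs4 values given was at most 0.00335.

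The carriers outside the 10 were scarce. Igfbp1 stayed under 1 CPM in all libraries and was higher in Cap-B+2D (0.788, 0.915 and 0.766 CPM) than in Cap-L+2D (0.25, 0.107 and 0.112 CPM), by 2.42 on the log2 scale (edgeR adjusted p = 3.77e-06). Igfbpl1, a binding protein-like gene, rose from cap to bell by 3.81 in the lingual and 2.55 in the buccal part (edgeR adjusted p = 5.69e-11 and 5.52e-09). In Bell-W it measured 0.518, 1.45 and 11.1 CPM, and the last of these is the library with the most epithelial marker RNA.

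**Figure D4:**
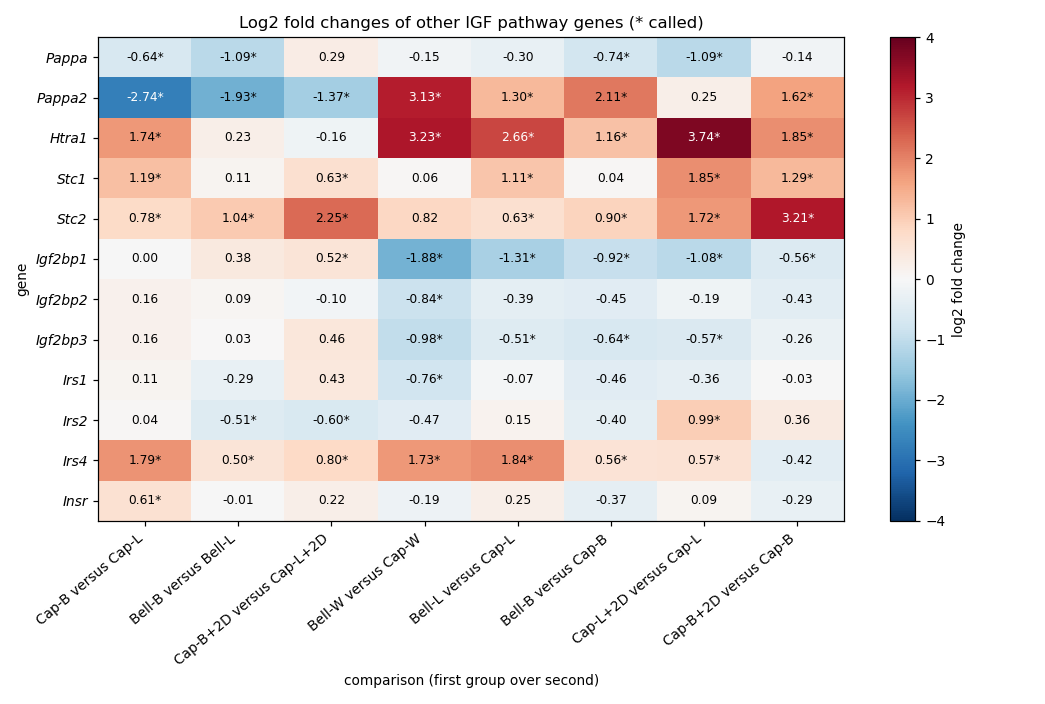
Log2 fold changes of 12 other IGF pathway genes (vertical axis) in 8 comparisons (horizontal axis), from blue (lower in the first group) to red (higher), with * for called genes. Pappa2 was lower and Stc2 higher on the buccal side in all 3 side comparisons, and Htra1 was higher in all 5 comparisons of stage and culture.

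Profiles over the 24 libraries were compared by Pearson's r of log2 CPM, as a description of points that share groups, depth and culture. Among the 10, Igfbp3 and Igfbp7 were most alike (r = 0.885), followed by Igf2r and Igfbp2 (0.877), and Igf1r and Igfbp4 were least alike (-0.538). Of 12350 genes with a mean log2 CPM of at least 3, those nearest to Igf1 were Nr3c1 (r = 0.947), Eeig2 (0.946) and Mdfic (0.942). Igf2 was nearest to Cul7 (0.935), Atxn2 (0.934) and Fam193a (0.916). Igf1r had Igsf3 (0.896), Gm8990 (0.858) and Tbx3 (0.849), and Igf2r had Angptl1 (0.946), Clcn5 (0.946) and AW551984 (0.946). Nearest to Igfbp2 were Dpp6 (0.969), Ccnd3 (0.960) and H19 (0.959), and to Igfbp3 Sdk2 (0.973), Atp6ap2 (0.973) and Pcolce (0.972). Igfbp4 was nearest to Rhoc (0.966), Dusp1 (0.957) and Ptprm (0.949), and Igfbp5 to 9530068E07Rik (0.949), Crtap (0.940) and Anpep (0.938). For Igfbp6 the nearest were D16Ertd472e (0.971), Dtx4 (0.962) and Col14a1 (0.962), and for Igfbp7 Txnip (0.969), Col5a3 (0.933) and Pfkp (0.929).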

How the data were processed

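Bulk RNA-seq was performed on 24 libraries of mouse dental mesenchyme. The authors deposited 1 table of counts of read pairs per gene, not normalized. Per the file headers, featureCounts of Subread counted pairs over exons of a GRCm39 annotation without strand, leaving out pairs on several places or genes. The submitters' notes name FastQC 0.12.1, Trimmomatic 0.39 and Bowtie 1.2.3 and a SMARTER kit, whereas the methods name Cutadapt and a TruSeq stranded kit. The deposited gene lengths gave CPM per kb. Symbols came from the GENCODE annotation by identifier (56017 of 56748 named).

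In R 4.3.3, edgeR 4.0.16 (TMM, filterByExpr, quasi-likelihood F test, Benjamini-Hochberg over all tested genes) compared groups pairwise for the sides and the undivided mesenchyme, with the 9 libraries of a side in 1 fit, and with interactions over 12 libraries and no limit on the fold. The fit was tested on simulated data with 200 changed genes. All 10 IGF genes are named. Named pathway genes are the called ones with the largest change (at most 3 a comparison) plus proteases, their inhibitors and Igf2 locus genes, and the 3 nearest profiles are named for each. The members, lists and tests were chosen with earlier results of these data known. In no comparison did the deviations of all same-numbered pairs of libraries correlate over 0.1, so numbers were not used as pairs. Single pairs reached 0.187 (Bell-B and Bell-L, replicate 2) and 0.235 (Cap-B+2D and Cap-L+2D, replicate 3). The check therefore cannot show that the numbers carry no pairing. Alternatives were RLE, DESeq2 1.42.0, other filters and thresholds, all 24 libraries in 1 fit, a replicate block, leaving out the 100 most abundant genes, and each library left out. Floors of 3 counts cover counting error only.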

Additional observations from a re-analysis of the deposited data

Results flagged for a closer look

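The difference between buccal and lingual parts changed with stage or with culture for the genes below, by the edgeR interaction test. All values are differences of log2 fold changes, the later minus the cap stage, so a negative value means that the buccal to lingual ratio was lower at the bell stage or after culture.

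With stage, the ratio was lower for Igf1 (-1.71) and Igfbp6 (-2.91) and higher for Igfbp5 (0.72) and Igfbp7 (0.43). With culture, it was lower for Igf1 (-1.71), Igf2 (-0.49), Igf1r (-0.29), Igfbp3 (-0.55), Igfbp4 (-1.02), Igfbp5 (-0.17) and Igfbp6 (-2.87). It was higher for Igf2r (0.32) and Igfbp7 (0.25). Both interactions share the Cap-L and Cap-B libraries. Between 32.5% and 35.5% of all tested genes passed these tests.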

How the results depend on the processing

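Of 1853 fold changes of the IGF genes under alternative settings, 1791 kept direction and call, 23 lost the call, 28 gained it and 11 turned direction, none of them called at first (at most 0.17 in size on the log2 scale). Among the settings, the limit on the fold moved the counts of IGF genes called the most, though less in some comparisons. The share of all genes was not computed with no limit or with a limit of 1. The counts at those settings show only how the IGF calls depend on the limit. With no limit, the counts were 8 (Cap-B versus Cap-L), 10 (Bell-B versus Bell-L), 9 (Cap-B+2D versus Cap-L+2D), 9 (Bell-L versus Cap-L), 10 (Cap-L+2D versus Bell-L) and 9 (Cap-B+2D versus Bell-B). The other counts moved less for their size. They were 7 (Bell-W versus Cap-W), 9 (Bell-B versus Cap-B), 10 (Cap-L+2D versus Cap-L) and 8 (Cap-B+2D versus Cap-B). With a limit of 1, the counts were 1 (Bell-B versus Bell-L), 2 (Cap-B+2D versus Cap-L+2D), 1 (Bell-B versus Cap-B), 4 (Cap-L+2D versus Cap-L), 2 (Cap-B+2D versus Cap-B), 1 (Cap-L+2D versus Bell-L) and 0 (Cap-B+2D versus Bell-B, edgeR). Those of Cap-B versus Cap-L, Bell-W versus Cap-W and Bell-L versus Cap-L moved less for their size or not at all. Asking for 10 counts in every library left 0 in Cap-B versus Cap-L, since Igfbp6 was then not tested. All 24 libraries in 1 fit gave 5 for the interaction with culture, where the count over all genes went from 7842 to 4048. The cause was not tested.

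With 1 library left out, the counts ranged over 1 to 2 (Cap-B versus Cap-L), 2 to 3 (Bell-B versus Bell-L), 4 to 4 (Cap-B+2D versus Cap-L+2D), 4 to 6 (Bell-W versus Cap-W), 4 to 6 (Bell-L versus Cap-L), 4 to 6 (Bell-B versus Cap-B), 7 to 8 (Cap-L+2D versus Cap-L), 6 to 6 (Cap-B+2D versus Cap-B), 6 to 7 (Cap-L+2D versus Bell-L), 4 to 4 (Cap-B+2D versus Bell-B), 4 to 5 (interaction with stage) and 8 to 10 (interaction with culture). The replicate block gave 1, 2, 4, 5, 4, 6, 8, 6, 6, 4, 4 and 9 in that order, and changed the call of Igfbp6 in Bell-W versus Cap-W (lost) and of Igf2 in Cap-L+2D versus Cap-L (gained). The labels do not say whether libraries with the same number came from the same germs.

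The turned values were as follows, with ranges over the libraries left out. Igfbp7 in Cap-B versus Cap-L was -0.00466 without a filter, -0.00131 with all libraries, and -0.0213 to 0.0623. Igfbp2 in Bell-W versus Cap-W ranged from -0.0900 to 0.362. Igf2 ranged from -0.204 to 0.00843 in Bell-L versus Cap-L and from -0.0315 to 0.0548 in Cap-B+2D versus Cap-B. Igfbp4 in Cap-B+2D versus Cap-B was 0.000245 without a filter. The interactions with stage ranged from -0.0387 to 0.105 (Igf1r), -0.0156 to 0.136 (Igfbp2) and -0.00176 to 0.0465 (Igfbp3). RLE scaling moved group levels by a factor of 0.983 to 1.02. Depth limits Igfbp6 most, with 5 to 20 counts in Cap-L.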
